A study of Mus musculus with 15 samples.

Results

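The genes of fatty acid oxidation and ketogenesis described here are 31 genes of a table of 27179, taken by their symbols through the Entrez gene identifiers of the deposited counts. All 31 were in the table and all 31 passed the filter on low counts, among 13883 genes tested. RNA was sequenced from mouse intestinal epithelium sorted by flow cytometry as EpCam-positive cells without CD45 or CD31, split by a green fluorescent reporter of Lrig1, a membrane protein that marks stem and progenitor cells of the gut. The groups were Lrig1-high cells from tumors (3 libraries), Lrig1-low cells from tumors (4 libraries, 3 of them used), Lrig1-high cells from normal epithelium (4 libraries) and Lrig1-low cells from normal epithelium (4 libraries). Every group came from animals of 1 cross, which carry the Lrig1-eGFP-IRES-CreERT2 reporter allele and the APCmin allele, a truncation of the tumor suppressor Apc, so the normal epithelium carries both alleles as well. The labels name the tissue as colon, with tumors dissected away from it, and name no animal. Age, sex and strain are not given in the sources used here. With no animal named, the p-values below measure the spread between these libraries, which may be technical in part.

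Fatty acid oxidation shortens fatty acids inside mitochondria, where each turn of the spiral takes a dehydrogenation, a hydration, a further dehydrogenation and a thiolytic cleavage that releases acetyl-CoA. Long chains enter through the carnitine shuttle, very long chains are first shortened in peroxisomes, and PPAR receptors bound by fatty acids switch on many of these genes. In the gut, absorptive enterocytes and crypt stem cells both use the pathway, and acetyl-CoA can be turned into ketone bodies, of which hydroxybutyrate is the most abundant.

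Depth was 9508505 to 17296536 counts in the 14 libraries used, and 1 tumor Lrig1-low library (S15) with 357 counts was left out. Genes of the mitochondrial genome took 14.1% to 49.5% of the counts, with the highest share in S12 (tumor Lrig1-high). Lrig1 RNA went against the label in 4 libraries: it was 142 CPM (counts scaled to library size) in S07, labelled tumor Lrig1-low, and 55.7 CPM in S08, labelled tumor Lrig1-high, and likewise 85.5 CPM in S09, labelled normal Lrig1-low, and 36.4 CPM in S10, labelled normal Lrig1-high. In tumors the split was less clear: S03 and S11 (Lrig1-low) had 53.2 and 43.0 CPM, both below S08, while S04 and S12 (Lrig1-high) had 148 and 72.5 CPM. In normal epithelium S01, S05 and S13 (Lrig1-low) had 45.3 to 54.0 CPM. There S02, S06 and S14 (Lrig1-high) had 126 to 146 CPM. Results are therefore also given from the 10 libraries without S07, S08, S09 and S10. These keep S04 and S12 (Lrig1-high) and S03 and S11 (Lrig1-low) as the only tumor libraries. Below, values per library run in the order S04, S08 and S12 (tumor Lrig1-high), S03, S07 and S11 (tumor Lrig1-low), S02, S06, S10 and S14 (normal Lrig1-high), and S01, S05, S09 and S13 (normal Lrig1-low). The colon label was set against markers: 4 colonocyte markers in the table summed to 22.0 to 256 CPM per library, with Slc26a3 at 15.8 to 163 CPM, while 12 absorptive markers, several of them typical of the small intestine, summed to 1398 to 9390 CPM, with sucrase-isomaltase (Sis) at 102 to 3034 CPM. Of 5 adipocyte markers, Adipoq, Plin1, Lep and Retn had no count in any library. Cidec made up the whole sum of these markers, which lay at 3.37 to 6.53 CPM in normal Lrig1-low cells and at 0 to 7.52 CPM elsewhere.

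In tumor cells, as the mean over both Lrig1 fractions, 26 of the 31 genes had a negative log2 fold change against normal cells. Of all genes tested, 51.6% did, and the median was -0.48 over the members, against -0.02 over all genes. Only Ehhadh, a bifunctional enzyme of the peroxisomal spiral, fell past the threshold, to 28.1 to 52.0 CPM in tumors against 46.6 to 99.6 CPM in normal epithelium. Between Lrig1-high and Lrig1-low cells no member passed the test, in tumors or in normal epithelium. In bulk RNA, fewer cells of a type and less RNA per cell cannot be told apart, and this holds for every difference below.

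**Figure D1:**
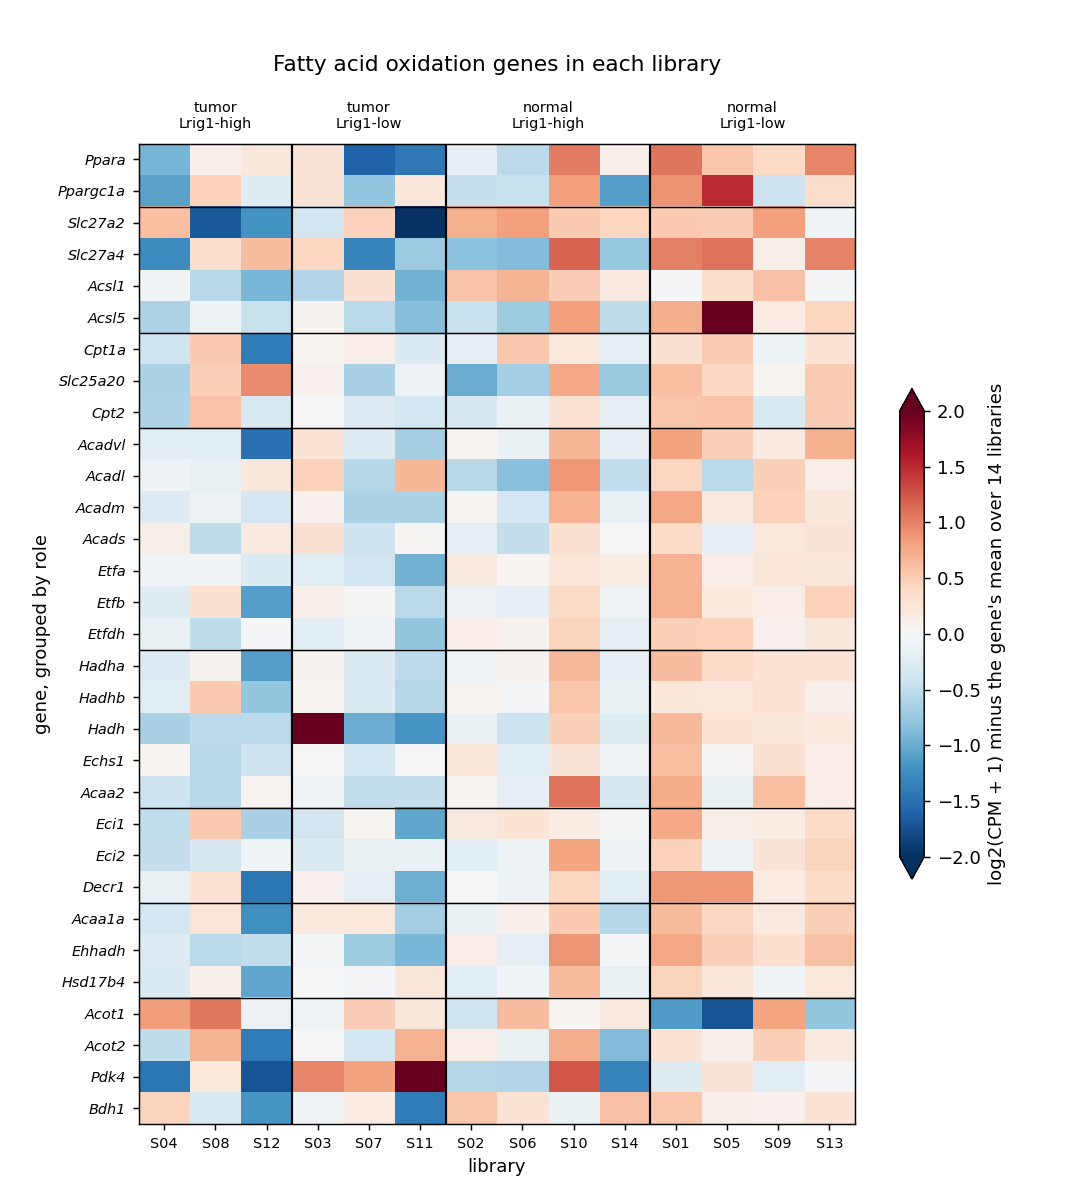
Level of each of the 31 genes (rows, grouped by role) in each of the 14 libraries (columns, by group), as log2(CPM + 1) minus the gene's mean over the libraries, red above and blue below the mean, with colors ending at 2 in either direction. Blue prevails in the tumor columns and red in the normal Lrig1-low columns and in S10, and Hadh in S03, Acsl5 in S05 and Pdk4 in S11 reach the red end of the scale.

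The sequence before the start of Ehhadh is shown because it is the gene that passed the test and because PPAR receptors bind a repeat of a short half-site. The window runs from 250 bases before to 50 bases after the annotated start, at chr16:21787785-21788084 on the minus strand (RefSeq, GRCm38.p6, the build also called mm10), read 5′ to 3′ along the gene, with capitals for its match to the half-site NGGTCA, which lies on the opposite strand and begins 165 bases before the start.
Ehhadh: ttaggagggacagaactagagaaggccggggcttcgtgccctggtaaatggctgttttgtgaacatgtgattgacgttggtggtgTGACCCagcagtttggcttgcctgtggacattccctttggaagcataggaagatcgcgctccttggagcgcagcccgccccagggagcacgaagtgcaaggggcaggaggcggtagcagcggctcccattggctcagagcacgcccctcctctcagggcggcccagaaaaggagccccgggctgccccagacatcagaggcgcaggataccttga

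RefSeq windows of this kind were found for 28 members, 30 windows in all, and 3 motifs were searched in them on both strands. The half-site NGGTCA was in 11 of the 30 member windows, against 40.4% of all 32851 windows, so Ehhadh shares its match with a large part of the genome. The direct repeat bound by PPAR receptors, searched as AGGNCA repeated after a gap of 1 base, was in none of the member windows and in 0.381% of all windows. The extended half-site TCAAGGTCA of the estrogen-related receptors was in none of the member windows and in 0.423% of all windows. Copies of the repeat and of the extended site can also match NGGTCA, so the 3 searches overlap, and a missing match says only that these letters are not in these windows.

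Hadha and Hadhb, which encode the alpha and beta chains of the mitochondrial trifunctional protein, start head to head. The window of Hadha is shown because the pair shares its upstream sequence: at chr5:30154931-30155230 (minus strand, same source and build), capitals mark the 228 bases that also lie in the window of Hadhb on the other strand.
Hadha: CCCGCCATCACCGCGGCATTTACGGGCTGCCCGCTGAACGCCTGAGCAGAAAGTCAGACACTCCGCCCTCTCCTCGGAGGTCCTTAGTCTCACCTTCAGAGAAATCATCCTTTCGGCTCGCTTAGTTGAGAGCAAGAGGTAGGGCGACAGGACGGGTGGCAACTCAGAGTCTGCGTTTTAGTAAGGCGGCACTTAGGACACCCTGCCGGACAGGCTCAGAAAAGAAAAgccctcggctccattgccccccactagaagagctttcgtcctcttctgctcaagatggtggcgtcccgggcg

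Levels per length of exon spanned a wide range among the 31 genes. Averaged over the 14 libraries, Hadh had the highest level at 218 CPM per kilobase of exon, followed by Etfb at 102, Acsl5 at 86.9, Acaa2 at 73.9 and Hadha at 68.9 CPM per kilobase. Acot1 at 4.97, Acot2 at 3.33 and Pdk4 at 2.69 CPM per kilobase were the lowest. The mean of Hadh includes S03, where it had 1951 CPM, against 122 to 434 CPM in the other 13 libraries. Neighbors in the order overlapped over their libraries for every adjacent pair. Hadhb, at 14.8 CPM per kilobase, stood far below its partner Hadha. Reads that match several genes were not counted under the options named in the file header, and 61.1% of the 35-base words in the transcripts of Hadhb also occur in another gene, against 1.03% for Hadha. The share was 61.0% for Etfb, 43.5% for Acaa1a, 37.4% for Acot1, which shares most of it with Acot2, and 30.4% for Acadvl. It was 0.0339% for Ehhadh. The share also counts words of genes that overlap at the same place, where a read has 1 position. For Hadha all of it was with Garem2, which overlaps Hadha on the opposite strand. Whether reads of the genes with a high share, Acot2 among them, were lost was not tested, so their levels are uncertain.

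**Figure D2:**
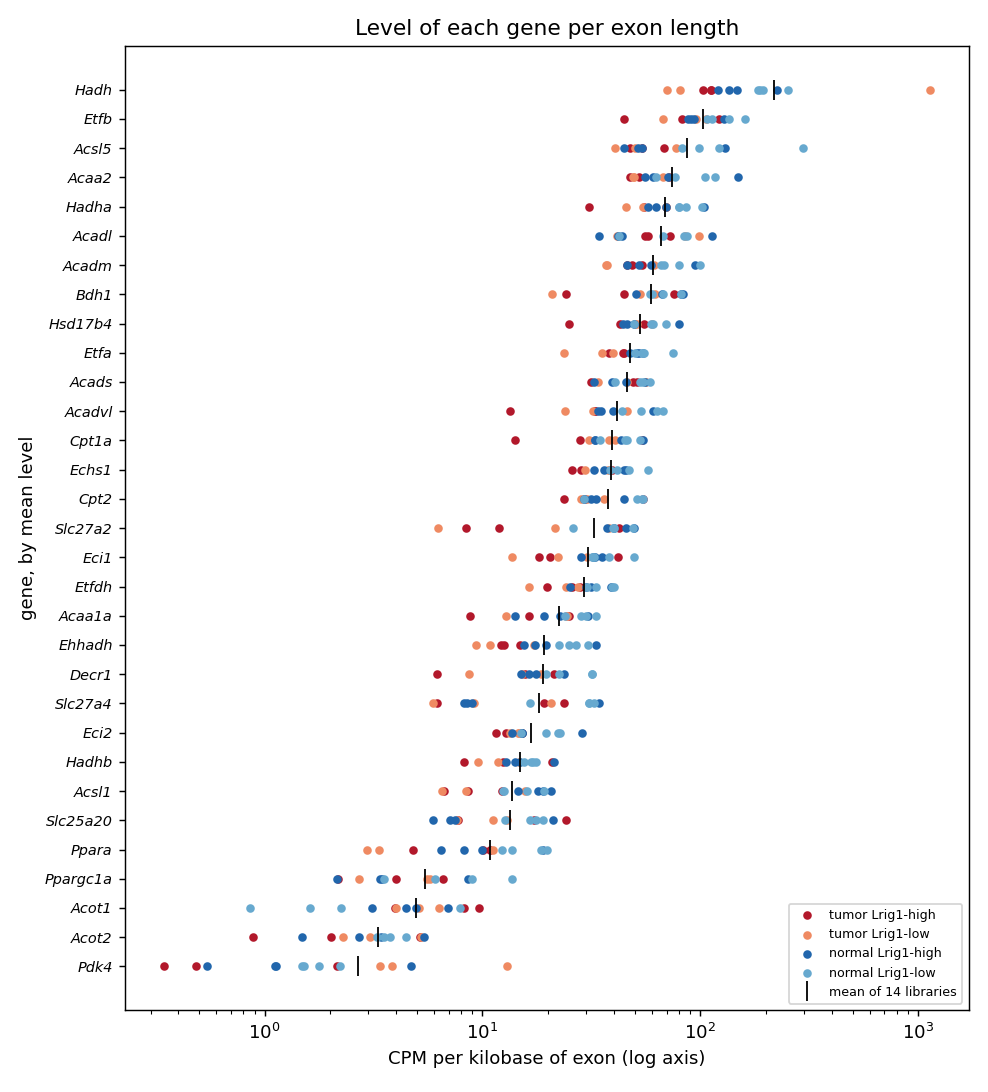
Level of each gene in CPM per kilobase of exon on a log axis, with a point for each library colored by group and a bar at the mean of 14 libraries, ordered by that mean. The genes span from 2.69 CPM per kilobase for Pdk4 to 218 for Hadh, whose mean includes 1 tumor Lrig1-low library far above the rest.

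Tumor cells were compared with normal cells to ask how the tumors differ from the epithelium around them. Fold changes of single genes are log2 values of tumor over normal, given ± SE with edgeR's adjusted p, unless another comparison is named. As the mean of both fractions, edgeR's quasi-likelihood test with Benjamini-Hochberg adjustment over all genes called 1 of 31 members, against 2.22% of all genes tested. DESeq2 called 3 there (Acsl1, Etfa and Ehhadh, all lower), against 7.64% of all genes by that tool. limma-voom with sample weights called 0, against 3.95% of all genes. At an unadjusted p under 0.05, 15 members were lower, against 6.75% of all genes, and none was higher, against 10.6% of all genes. In Lrig1-low cells alone, 0 of 31 members were called, against 0.331% of all genes, with 10 lower at an unadjusted p under 0.05 (5.09% of all genes) and 1 higher (8.95% of all genes). The median there was -0.58, against 0.02 over all genes, and 27 members had a negative fold change, against 48% of all genes. In those cells, 13 members lay below the normal libraries without overlap, against 8.39% of all genes. DESeq2 called 2 members in Lrig1-low cells, against 5.09% of all genes by that tool, and limma-voom called 5, against 10% of all genes.

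In Lrig1-high cells, 0 of 31 members were called by edgeR, against 0% of all genes tested, and DESeq2 (0.821% of all genes) and limma-voom (0% of all genes) called 0 as well. At an unadjusted p under 0.05, 2 members were lower (Acsl1 and Ehhadh), against 4.15% of all genes, and none was higher. The median was -0.35, against -0.04 over all genes, and 25 members had a negative fold change, against 52.6% of all genes. Without S10, which stood high among the normal Lrig1-high libraries, the median was -0.15 and 20 members had a negative fold change. From all 14 libraries, 5 members lay below the normal libraries without overlap (Acsl1, Acadvl, Etfa, Hadh and Ehhadh), against 5.02% of all genes. From the 10 libraries whose Lrig1 RNA followed the label, the median was -0.67 in Lrig1-low cells, -0.30 in Lrig1-high cells and -0.47 as the mean of both.

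Whether the tumor difference itself depended on the fraction was asked with the interaction term. edgeR called 0 members, against 0% of all genes, DESeq2 (0.036% of all genes) and limma-voom (0%) called 0, and Pdk4 was the only member with an unadjusted p under 0.05. The members' median interaction was 0.15, against -0.09 over all genes, and 9 of 31 members had a negative term, against 54.6% of all genes. The larger median in Lrig1-low cells is therefore not shown to be a difference between the fractions for any single member.

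**Figure D3:**
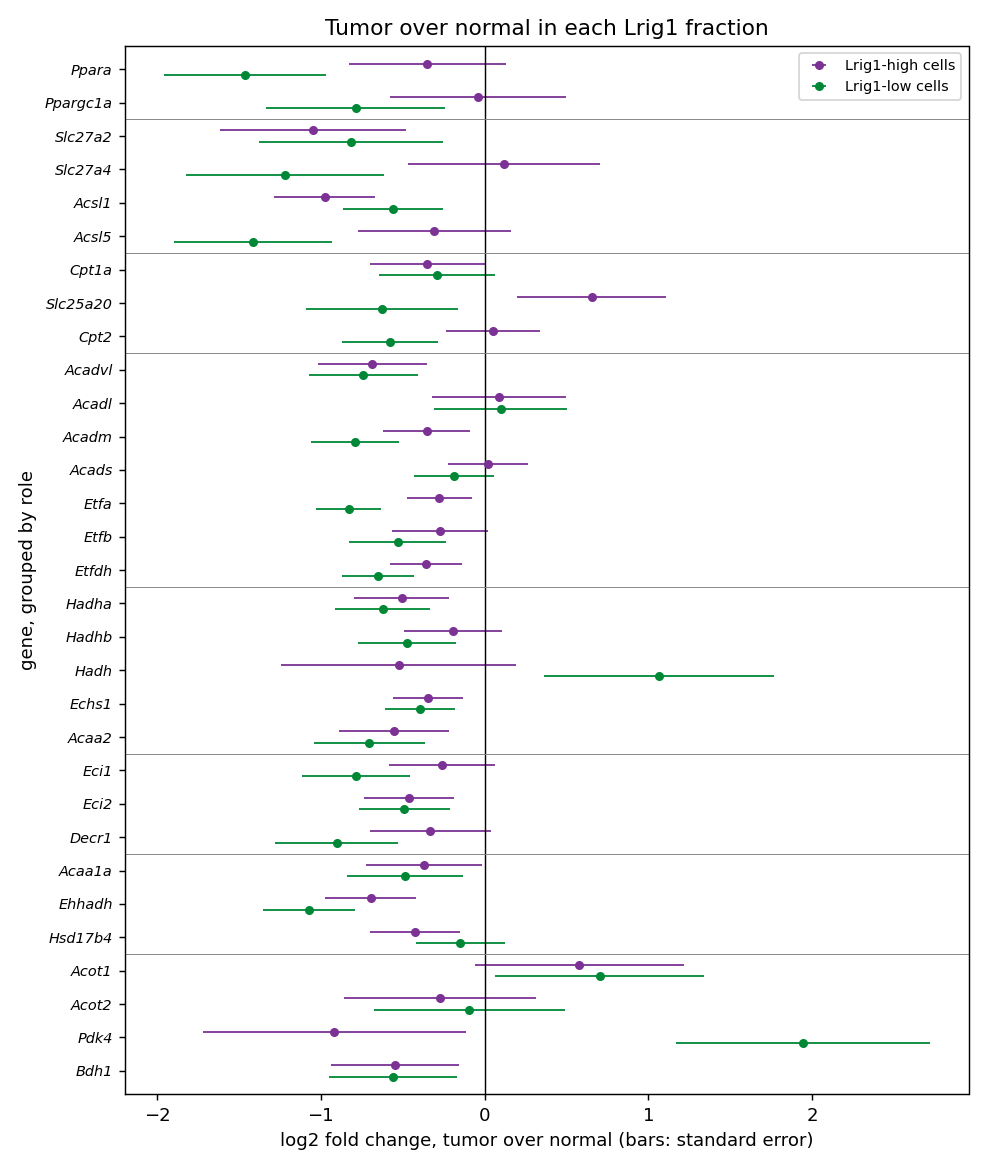
Log2 fold change of tumor over normal cells for each gene, with its standard error as a bar, in Lrig1-high cells (purple) and in Lrig1-low cells (green), grouped by role. Most points lie left of 0 in both fractions, while Hadh and Pdk4 lie to the right in Lrig1-low cells, at 1.07 and 1.94.

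Among the peroxisomal enzymes, Ehhadh (Entrez 74147, chromosome 16, 21761285 to 21787834, minus strand, mm10, 3010 bases of exon) catalyzes the hydration and the second dehydrogenation of the peroxisomal spiral and is a classic PPAR target in rodent liver. Ehhadh had 44.6, 36.8 and 38.0 CPM in tumor Lrig1-high cells, 52.0, 32.5 and 28.1 CPM in tumor Lrig1-low cells, 59.1, 46.6, 99.6 and 52.3 CPM in normal Lrig1-high cells and 92.3, 75.3, 67.7 and 80.8 CPM in normal Lrig1-low cells. The tumor libraries lay below the normal libraries of the same fraction without overlap in both fractions, though the highest tumor value exceeded the lowest normal value across fractions. Its log2 fold change of tumor over normal was -0.88 ± 0.20 (SE, adjusted p = 0.0391, edgeR) as the mean of both fractions, -1.07 ± 0.28 (adjusted p = 0.0929) in Lrig1-low cells and -0.70 ± 0.28 (adjusted p = 0.384) in Lrig1-high cells. The call rested on the whole set of libraries. Without S11 the adjusted p was 0.116 and without S12 it was 0.0556, and of the 14 fits that left out 1 library only those without S03, S04, S09 and S10 kept it. The fold change lay between -1.07 and -0.74 over those 14 fits. In the 10 libraries whose Lrig1 RNA followed the label it was -0.69 with an adjusted p of 0.0833.

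Hsd17b4, the other bifunctional enzyme of peroxisomes, which handles branched and very long chains, had 115, 148 and 66.9 CPM in tumor Lrig1-high cells, 138, 135 and 162 CPM in tumor Lrig1-low cells, 118, 133, 215 and 124 CPM in normal Lrig1-high cells and 187, 163, 133 and 159 CPM in normal Lrig1-low cells. Its groups overlapped, and its log2 fold change was -0.29 ± 0.19 (adjusted p = 0.48) as the mean of both fractions. Acaa1a, the peroxisomal thiolase, lay at 15.4 to 44.1 CPM in tumors and at 24.7 to 58.3 CPM in normal epithelium, with a log2 fold change of -0.43 ± 0.25 (adjusted p = 0.412).

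Both regulators had negative fold changes that did not pass the test. Ppara (chromosome 15, 85735564 to 85806851), the nuclear receptor that fatty acids activate, had 36.2, 75.5 and 82.0 CPM in tumor Lrig1-high cells, 83.9, 22.2 and 25.3 CPM in tumor Lrig1-low cells, 62.1, 48.7, 143 and 75.0 CPM in normal Lrig1-high cells and 148, 103, 92.7 and 139 CPM in normal Lrig1-low cells. In Lrig1-low cells S07 and S11 lay far below the normal libraries while S03 came close to them, and in Lrig1-high cells the groups overlapped. The log2 fold change of Ppara was -1.46 ± 0.50 (adjusted p = 0.186) in Lrig1-low cells, -0.35 ± 0.48 (adjusted p = 0.77) in Lrig1-high cells and -0.91 ± 0.34 (adjusted p = 0.187) as their mean. Without S03 the mean was -1.39 with an adjusted p of 0.0349, where 1.98% of all genes were called. Ppara was called as the mean of both fractions in only that 1 of 25 settings of libraries and processing. Its adjusted p ranged up to 0.407 over them. Ppargc1a, a coactivator that raises mitochondrial gene expression, lay at 14.1 to 43.0 CPM in tumors and 13.9 to 88.7 CPM in normal epithelium, with a log2 fold change of -0.41 ± 0.38 (adjusted p = 0.634).

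The uptake and activation genes held the members with the most negative median by role, -0.81 as the mean of both fractions. There edgeR called 0 of 4, and 3 of 4 were lower at an unadjusted p under 0.05, against 6.75% of all genes. Acsl5 (chromosome 19, 55253369 to 55296628), a long-chain acyl-CoA synthetase abundant in the intestine, had 149.8, 215 and 171 CPM in tumor Lrig1-high cells, 244, 158 and 128 CPM in tumor Lrig1-low cells, 170.0, 141, 411 and 162 CPM in normal Lrig1-high cells and 382, 930.1, 259 and 312 CPM in normal Lrig1-low cells. In Lrig1-low cells every tumor library lay below every normal library, with S03 close to S09 and with S05 far above the rest, whereas in Lrig1-high cells the groups overlapped. Tumor over normal gave Acsl5 a log2 fold change of -1.41 ± 0.48 (adjusted p = 0.188) in Lrig1-low cells and -0.31 ± 0.47 (adjusted p = 0.791) in Lrig1-high cells. Slc27a2 (chromosome 2, 126553024 to 126588243), a fatty acid transporter that also activates very long chains, had 97.8, 19.3 and 27.4 CPM in tumor Lrig1-high cells, 49.5, 87.9 and 14.4 CPM in tumor Lrig1-low cells, 105, 114, 92.7 and 85.9 CPM in normal Lrig1-high cells and 92.6, 91.1, 113 and 60.0 CPM in normal Lrig1-low cells. The tumor libraries split, since S04 and S07 lay within the normal range and the other 4 below all normal libraries. For Slc27a2 the log2 fold change was -0.93 ± 0.40 (adjusted p = 0.245) as the mean of both fractions, and -1.46 with an adjusted p of 0.0312 without S04. Without S04, 7.34% of all genes were called, against 2.22% from 14 libraries. Slc27a2 was called as the mean of both fractions in only that 1 of 25 settings, with an adjusted p of up to 0.441 over them.

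Acsl1, a long-chain acyl-CoA synthetase of mitochondria and the endoplasmic reticulum, had 47.7, 33.4 and 25.8 CPM in tumor Lrig1-high cells, 32.6, 61.2 and 25.3 CPM in tumor Lrig1-low cells, 74.1, 79.9, 70.0 and 56.6 CPM in normal Lrig1-high cells and 48.5, 62.2, 74.8 and 48.8 CPM in normal Lrig1-low cells. In Lrig1-high cells the tumor libraries all lay below the normal ones, and in Lrig1-low cells S07 overlapped them. Its log2 fold change of -0.77 ± 0.22 as the mean of both fractions missed the threshold (adjusted p = 0.0822), as did -0.98 ± 0.31 in Lrig1-high cells (adjusted p = 0.355). With the 10 libraries whose Lrig1 RNA followed the label, the mean was -0.90 with an adjusted p of 0.0473, where 4.71% of all genes were called. Slc27a4, the fatty acid transport protein of enterocytes, ranged from 23.9 to 94.5 CPM in tumors and from 33.0 to 138 CPM in normal epithelium, with a log2 fold change of -0.55 ± 0.42 (adjusted p = 0.549).

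**Figure D4:**
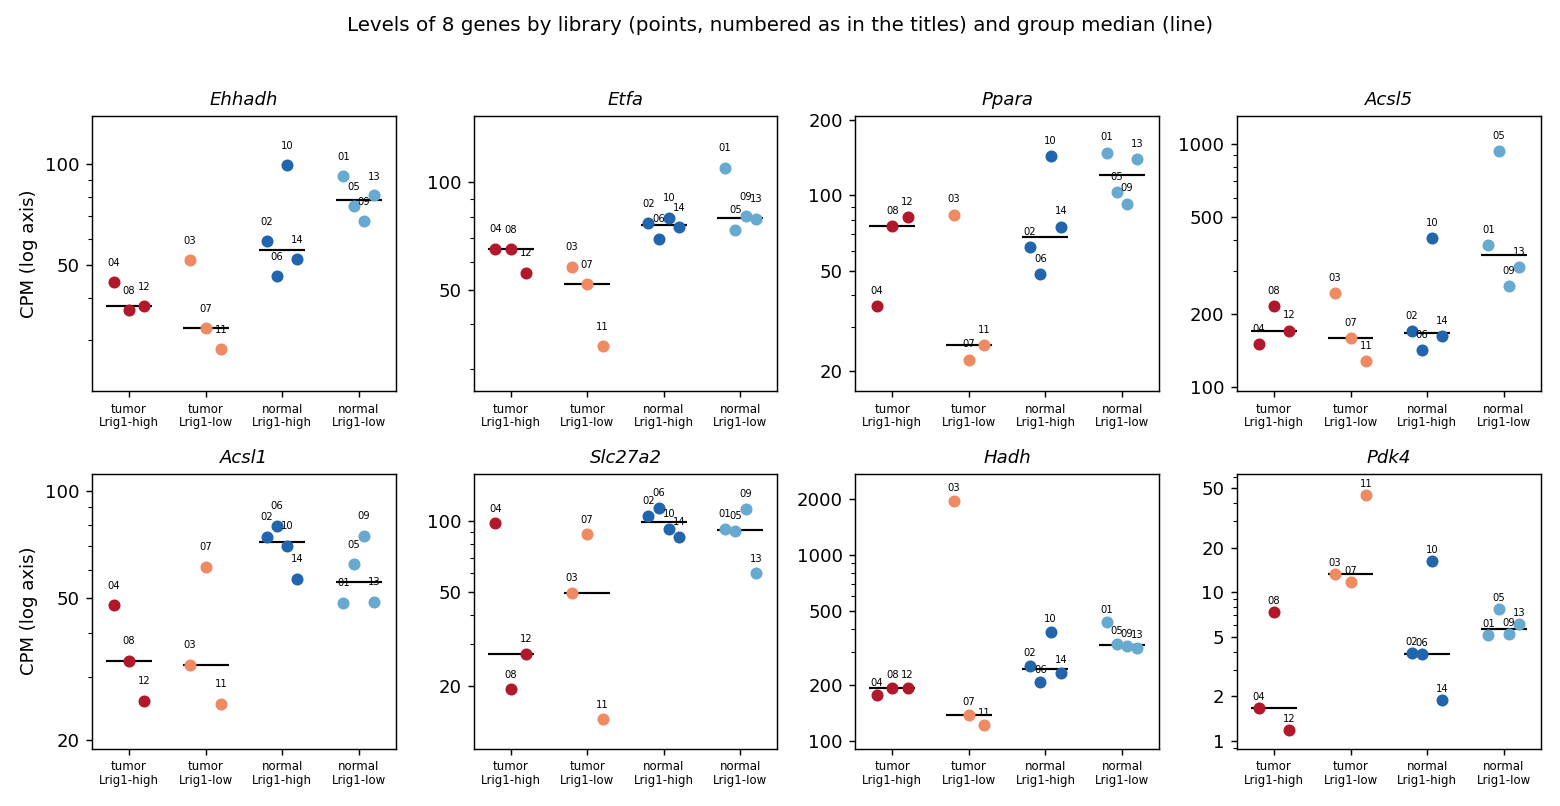
CPM of 8 genes on a log axis in each library, with points numbered by library, colored and placed by group, and a line at the group median. Ehhadh and Etfa separate tumor from normal libraries within each fraction, Slc27a2 has tumor libraries at both ends of the range, and S03 stands apart for Hadh at 1951 CPM. Pdk4 has its highest group median in tumor Lrig1-low cells, though S10 (normal Lrig1-high) lies above S03 and S07.

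In the carnitine shuttle, edgeR called 0 of 3 members in tumor over normal as the mean of both fractions, against 2.22% of all genes. None had an unadjusted p under 0.05, where 6.75% of all genes were lower and 10.6% higher. Cpt1a (chromosome 19, 3323301 to 3385733), which makes the acyl-carnitines and is the main point of control of the pathway, had 121, 232 and 60.5 CPM in tumor Lrig1-high cells, 164, 175 and 133 CPM in tumor Lrig1-low cells, 141, 234, 186 and 141 CPM in normal Lrig1-high cells and 198, 228, 149.7 and 195 CPM in normal Lrig1-low cells. The groups overlapped throughout, and S12 had the lowest value. Its log2 fold change was -0.32 ± 0.25 (adjusted p = 0.559). Cpt2, which returns the chains to CoA inside mitochondria, had a log2 fold change of -0.26 ± 0.21 (adjusted p = 0.56). Slc25a20, the carrier between both, had 0.01 ± 0.32 (adjusted p = 0.991), with -0.63 ± 0.46 in Lrig1-low cells and 0.65 ± 0.45 in Lrig1-high cells, a pair of opposite sign whose interaction had an adjusted p of 0.69.

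Among the acyl-CoA dehydrogenases and the proteins that take up their electrons, 0 of 7 were called by edgeR as the mean of both fractions. At an unadjusted p under 0.05, 4 of 7 were lower, against 6.75% of all genes. Etfa, the alpha chain of the electron transfer flavoprotein, had 65.2, 64.9 and 55.8 CPM in tumor Lrig1-high cells, 58.1, 51.7 and 34.7 CPM in tumor Lrig1-low cells, 76.7, 69.4, 79.6 and 74.8 CPM in normal Lrig1-high cells and 109.8, 73.7, 80.4 and 78.9 CPM in normal Lrig1-low cells. It was the only member whose 6 tumor libraries all lay below its 8 normal libraries, which held for 79 of all 13883 genes tested. The log2 fold change of Etfa was -0.55 ± 0.14 (adjusted p = 0.0579) as the mean of both fractions and -0.83 ± 0.20 (adjusted p = 0.0741) in Lrig1-low cells. DESeq2 called Etfa in both comparisons.

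Etfb (chromosome 7, 43444143 to 43457782), the beta chain of the flavoprotein and the member with the highest level of its role, had 67.2, 98.8 and 36.5 CPM in tumor Lrig1-high cells, 86.3, 77.6 and 54.7 CPM in tumor Lrig1-low cells, 73.9, 71.2, 105 and 76.2 CPM in normal Lrig1-high cells and 131, 92.1, 87.4 and 111 CPM in normal Lrig1-low cells. In Lrig1-low cells the groups lay next to each other without overlap, and in Lrig1-high cells S08 lay within the normal range. Tumor over normal gave Etfb a log2 fold change of -0.40 ± 0.21 (adjusted p = 0.345). Etfdh, which passes the electrons to ubiquinone, had -0.50 ± 0.16 (adjusted p = 0.108) as the mean of both fractions.

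Acadvl (chromosome 11, 70010192 to 70015407), the dehydrogenase of very long chains, had 71.0, 70.7 and 28.8 CPM in tumor Lrig1-high cells, 99.8, 69.1 and 51.6 CPM in tumor Lrig1-low cells, 85.9, 75.5, 131 and 73.0 CPM in normal Lrig1-high cells and 145, 115, 94.2 and 137 CPM in normal Lrig1-low cells. In Lrig1-high cells the groups did not overlap, with S12 lowest by far, and in Lrig1-low cells S03 lay within the normal range. For Acadvl the log2 fold change was -0.71 ± 0.24 (adjusted p = 0.133). Acadm, the dehydrogenase of medium chains, had -0.57 ± 0.19 (adjusted p = 0.13). The long-chain enzyme Acadl and the short-chain enzyme Acads showed values near 0, with 0.09 ± 0.29 (adjusted p = 0.905) for Acadl and -0.08 ± 0.17 (adjusted p = 0.856) for Acads. Acadl shares 504 bases of exon with a gene on the opposite strand, which stranded counting keeps apart.

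In the later steps of the mitochondrial spiral, edgeR called 0 of 5 members as the mean of both fractions. Of the 5, 3 were lower at an unadjusted p under 0.05, against 6.75% of all genes. Hadh (chromosome 3, 131233424 to 131272037), the hydroxyacyl-CoA dehydrogenase of short and medium chains, had 176, 193 and 193 CPM in tumor Lrig1-high cells, 1951, 139 and 122 CPM in tumor Lrig1-low cells, 253, 207, 385 and 233 CPM in normal Lrig1-high cells and 434, 334, 323 and 317 CPM in normal Lrig1-low cells. S03 stood at 4.49 times the next library. The other 5 tumor libraries lay below all 8 normal libraries. Its log2 fold change was 1.07 ± 0.70 (adjusted p = 0.595) in Lrig1-low cells and 0.27 ± 0.50 (adjusted p = 0.834) as the mean of both fractions. Without S03 these values were -1.48 (adjusted p = 0.0347) and -1.02 (adjusted p = 0.0227), so that 1 library turned the direction. S03 held 11 genes with at least 100 CPM and more than 4 times the level of every other library, and Rbm28 led them at 172 times. Of the 31 members only Hadh was among them, and no member was in the corresponding lists of the other 13 libraries, which held 0 to 55 genes.

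Acaa2, the mitochondrial thiolase, had 78.2, 71.0 and 108 CPM in tumor Lrig1-high cells, 101, 73.5 and 74.6 CPM in tumor Lrig1-low cells, 107, 91.2, 223 and 83.2 CPM in normal Lrig1-high cells and 175, 93.6, 158 and 114 CPM in normal Lrig1-low cells. The groups overlapped in both fractions, and S10 was the highest library. The log2 fold change of Acaa2 was -0.63 ± 0.24 (adjusted p = 0.188). Hadha ranged from 118 to 266 CPM in tumors and from 221 to 398 CPM in normal epithelium, and Hadhb, which shares its upstream sequence, ranged from 16.002 to 40.7 CPM in tumors and from 25.1 to 41.6 CPM in normal epithelium. The fold change was -0.56 ± 0.20 (adjusted p = 0.165) for Hadha and -0.33 ± 0.21 (adjusted p = 0.455) for Hadhb, with a negative sign for both chains in both fractions. Echs1, the short-chain enoyl-CoA hydratase, had -0.37 ± 0.15 (adjusted p = 0.221).

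The auxiliary enzymes for unsaturated chains all had negative fold changes in both fractions. As the mean of both, edgeR called 0 of 3, and 3 were lower at an unadjusted p under 0.05 (6.75% of all genes). Eci1 (chromosome 17, 24426683 to 24439316), an enoyl-CoA isomerase that moves double bonds, had 22.2, 45.9 and 19.8 CPM in tumor Lrig1-high cells, 24.2, 33.0 and 14.96 CPM in tumor Lrig1-low cells, 35.9, 38.7, 35.1 and 30.8 CPM in normal Lrig1-high cells and 54.3, 34.6, 35.4 and 41.6 CPM in normal Lrig1-low cells. The tumor Lrig1-low libraries lay below the normal ones without overlap, and in Lrig1-high cells S08 was above all normal libraries of that fraction. Tumor over normal gave Eci1 a log2 fold change of -0.52 ± 0.23 (adjusted p = 0.261). In the 10 libraries whose Lrig1 RNA followed the label it was -0.94 with an adjusted p of 0.0389. Those 10 leave out S08 and S07, the highest tumor library for Eci1 in each fraction. There 4.71% of all genes were called, against 2.22% from 14 libraries. Eci1 was called as the mean of both fractions in only that 1 of 25 settings.

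Decr1 (chromosome 4, 15917240 to 15945507), the dienoyl-CoA reductase of mitochondria, had 46.6, 63.1 and 18.4 CPM in tumor Lrig1-high cells, 55.1, 45.0 and 25.6 CPM in tumor Lrig1-low cells, 52.2, 48.3, 70.0 and 44.4 CPM in normal Lrig1-high cells and 94.5, 94.6, 57.6 and 66.8 CPM in normal Lrig1-low cells. In Lrig1-low cells the groups did not overlap, with S03 next to S09, and in Lrig1-high cells they overlapped. For Decr1 the log2 fold change was -0.62 ± 0.26 (adjusted p = 0.243). Eci2, an isomerase found in mitochondria and peroxisomes, had -0.48 ± 0.20 (adjusted p = 0.224).

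The last 4 members act around the spiral and did not share a direction. Acot1 (chromosome 12, 84009502 to 84017670), a cytosolic thioesterase that frees fatty acids from CoA, had 12.8, 15.1 and 6.16 CPM in tumor Lrig1-high cells, 6.27, 9.89 and 8.00 CPM in tumor Lrig1-low cells, 4.86, 10.9, 6.97 and 7.75 CPM in normal Lrig1-high cells and 2.53, 1.34, 12.3 and 3.50 CPM in normal Lrig1-low cells. All groups were low and overlapped, and its log2 fold change was 0.64 ± 0.45 (adjusted p = 0.507). Acot2, the mitochondrial thioesterase beside it on the chromosome, had -0.18 ± 0.41 (adjusted p = 0.87). Bdh1 (chromosome 16, 31422297 to 31458901), which interconverts acetoacetate and hydroxybutyrate and is the only member of the ketone step, had 252, 149 and 80.3 CPM in tumor Lrig1-high cells, 177, 207 and 69.6 CPM in tumor Lrig1-low cells, 272, 222, 168 and 277 CPM in normal Lrig1-high cells and 271, 201, 195 and 224 CPM in normal Lrig1-low cells. Its tumor libraries overlapped the normal ones and reached further down, in S08, S11 and S12, with a log2 fold change of -0.55 ± 0.28 (adjusted p = 0.325).

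Pdk4, a kinase that shuts pyruvate out of the mitochondria's oxidation when fatty acids are burned, had a positive fold change in Lrig1-low cells. Pdk4 had 1.67, 7.39 and 1.19 CPM in tumor Lrig1-high cells, 13.2, 11.7 and 45.0 CPM in tumor Lrig1-low cells, 3.91, 3.84, 16.2 and 1.88 CPM in normal Lrig1-high cells and 5.14, 7.70, 5.22 and 6.14 CPM in normal Lrig1-low cells. The 3 tumor Lrig1-low libraries lay above the normal Lrig1-low libraries and above the tumor Lrig1-high libraries, without overlap. The log2 fold change of tumor over normal was 1.94 ± 0.78 (adjusted p = 0.273) in Lrig1-low cells and -0.92 ± 0.80 (adjusted p = 0.649) in Lrig1-high cells, with an interaction of -2.86 ± 1.12 (adjusted p = 0.685), so neither passed the test.

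Lrig1-high cells were compared with Lrig1-low cells to ask how the fractions differ. In tumors, edgeR called 0 of 31 members, against 0% of all genes, and DESeq2 (0.158% of all genes) and limma-voom (0%) called 0. Hadh and Pdk4 were lower at an unadjusted p under 0.05, against 3.9% of all genes, and none was higher. Pdk4 had a log2 fold change of -2.76 ± 0.89 (adjusted p = 0.655). The Hadh value of -1.98 ± 0.78 (adjusted p = 0.655) includes S03. The members' median was -0.04, against -0.06 over all genes, with 16 negative of 31, against 54.3% of all genes.

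In normal epithelium, edgeR called 0 of 31 members, against 0% of all genes, and DESeq2 called 0, against 0.0072% of all genes. Acsl5 was the only member lower at an unadjusted p under 0.05, against 1.06% of all genes, with a log2 fold change of -1.09 ± 0.43 (adjusted p = 1), and none was higher. The median was -0.24, against 0.01 over all genes, with 26 negative of 31, against 48.8% of all genes. The library S10 bore on this comparison: it had the highest summed level of the members other than Hadh among normal Lrig1-high libraries, 3587 CPM, with the others at 2176 to 2310 CPM. Without S10 the median was -0.53. In the 10 libraries whose Lrig1 RNA followed the label it was -0.48, and edgeR called 4 members lower, Ppargc1a, Slc27a4, Acsl5 and Cpt2, with 5.69% of all genes called. limma-voom, which gave S10 a weight of 0.348, called 17 members, 16 lower and Acot1 higher, with 30% of all genes called.

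Levels of absorptive enterocyte markers also varied over the libraries. Summed over 12 markers, they lay at 1812 to 3121 CPM in tumor Lrig1-high cells, 1398 to 4814 CPM in tumor Lrig1-low cells, 2029 to 9390 CPM in normal Lrig1-high cells and 4518 to 9233 CPM in normal Lrig1-low cells. Of the 12 markers, 0 were called by edgeR in tumor over normal as the mean of both fractions. At an unadjusted p under 0.05, 6 were lower, against 6.75% of all genes. A negative fold change was seen for 11, and the median was -1.05. The most abundant were Apob, which carries absorbed fat, and Sis, with log2 fold changes of -0.51 ± 0.40 (adjusted p = 0.565) for Apob and -1.75 ± 0.59 (adjusted p = 0.143) for Sis. The members other than Hadh summed to 1657 to 2354 CPM in tumor Lrig1-high cells, 1737 to 2468 CPM in tumor Lrig1-low cells, 2176 to 3587 CPM in normal Lrig1-high cells and 2766 to 3633 CPM in normal Lrig1-low cells. S10 was highest of all libraries in mean level of the members other than Hadh, at 6.42 on the log2(CPM + 1) scale, and its enterocyte markers stood at 8.29 on that scale, while S02, S06 and S14 had 6.36 to 6.42. The 2 levels did not always go together. On that scale the enterocyte markers reached 7.65 in tumor Lrig1-low cells, above the lowest normal Lrig1-low library at 7.14. The members other than Hadh lay at 5.89 or less in tumor Lrig1-low cells and at 6.06 or more in normal Lrig1-low cells. The part of enterocyte content in the member differences was not tested.

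**Figure D5:**
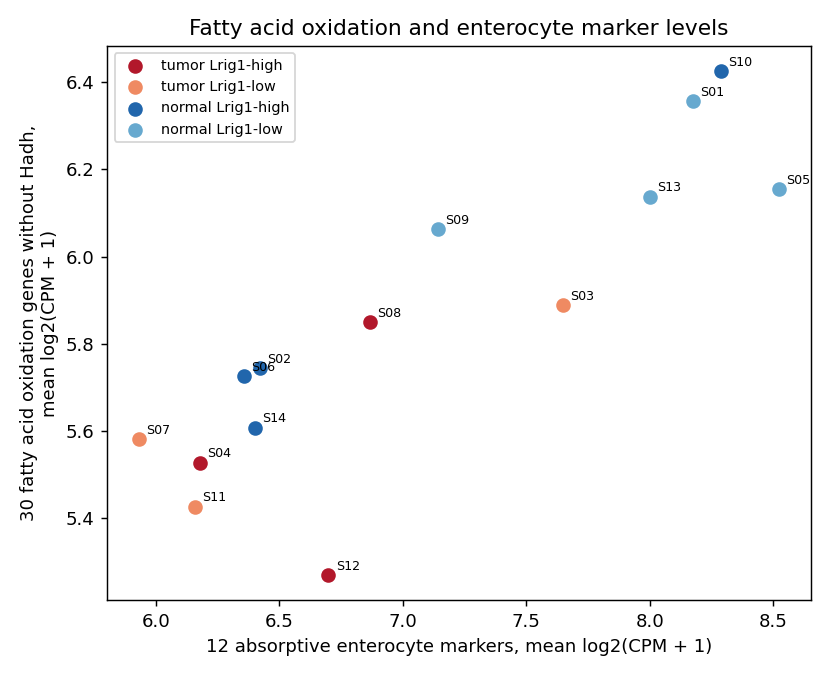
Mean log2(CPM + 1) of the 30 members other than Hadh (vertical axis) against that of 12 absorptive enterocyte markers (horizontal axis), with a labelled point for each of 14 libraries colored by group. The tumor libraries lie at 5.27 to 5.89 on the vertical axis. S02, S06 and S14 (normal Lrig1-high) lie within that range, the lowest of them at 5.61. S10 and the 4 normal Lrig1-low libraries lie at 6.06 to 6.42 toward the upper right.

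Crypt base stem cell markers varied as well, with 6 markers summing to 630 to 7048 CPM in tumor Lrig1-high cells, 808 to 6926 CPM in tumor Lrig1-low cells, 339 to 7612 CPM in normal Lrig1-high cells and 442 to 2435 CPM in normal Lrig1-low cells. As the mean of both fractions 6 of 6 had a positive fold change, with a median of 0.57 and 0 called by edgeR. At an unadjusted p under 0.05, 2 were higher, against 10.6% of all genes. In Lrig1-low cells alone 6 of 6 were positive with a median of 2.07, 0 called and 2 higher at that p (8.95% of all genes). In Lrig1-high cells 5 of 6 were negative with a median of -0.15. Olfm4 and Slc12a2 were the most abundant, with log2 fold changes of 0.76 ± 1.15 (adjusted p = 0.792) for Olfm4 and 0.38 ± 0.62 (adjusted p = 0.806) for Slc12a2. Of 7 enteroendocrine markers, which summed to 189 to 1027 CPM in tumor Lrig1-high cells, 701 to 1634 CPM in tumor Lrig1-low cells, 1150.0 to 3704 CPM in normal Lrig1-high cells and 1664 to 2734 CPM in normal Lrig1-low cells, 7 had a negative fold change as the mean of both fractions. Their median was -1.24, with 0 called by edgeR and 4 lower at an unadjusted p under 0.05, against 6.75% of all genes. Chgb and Chga were the most abundant. Contents of other sorted-out cells were low in most libraries: 7 leukocyte markers summed to 0.796 to 46.2 CPM, with Ptprc at 46.1 CPM in S08 (tumor Lrig1-high), and 5 endothelial markers summed to 0.089 to 157 CPM, nearly all of it Cdh5 in S11 (tumor Lrig1-low). The part of any of these in the member differences was not tested.

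The neighboring pathways were counted in tumor over normal as the mean of both fractions, and the genes named from them are given with their log2 fold change in that comparison. Of all genes tested, edgeR called 2.22%, and 10.6% were higher and 6.75% lower at an unadjusted p under 0.05, with a median of -0.02. Of 27 other fatty acid oxidation genes tested, edgeR called 0, with 2 higher and 2 lower at an unadjusted p under 0.05 and a median of -0.22. Among the most abundant was Abcd3, a peroxisomal importer of fatty acyl chains, with -0.33 ± 0.22 (adjusted p = 0.481). Of 23 PPAR target genes outside the member list, edgeR called 0, with 1 higher and 5 lower at an unadjusted p under 0.05 and a median of -0.72. The most abundant were Ucp2, an inner membrane carrier, with 0.20 ± 0.16 (adjusted p = 0.559), and Txnip, a regulator of glucose uptake, with -0.43 ± 0.29 (adjusted p = 0.483). Of 20 partners of PPAR receptors and related regulators, edgeR called 0, with 1 higher and 5 lower at an unadjusted p under 0.05 and a median of -0.19, and the most abundant were Hnf4a with -0.58 ± 0.24 (adjusted p = 0.22) and Ncor1 with -0.41 ± 0.17 (adjusted p = 0.22).

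Ketone body genes were few. Of 6 tested, edgeR called 0, with 2 lower at an unadjusted p under 0.05 (Acat1 and Slc16a1) and a median of -0.31. Fold changes were negative for 4 of them, down to -0.75, and positive for 2, up to 0.85. The most abundant were Acat1, which joins acetyl-CoA units, with -0.56 ± 0.22 (adjusted p = 0.198), and Oxct1, which opens ketone use, with 0.27 ± 0.27 (adjusted p = 0.675).

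Oxidative phosphorylation and the citrate cycle, which use the products of the spiral, also had negative medians. Of 27 nuclear genes of oxidative phosphorylation, edgeR called 1, with 16 lower at an unadjusted p under 0.05 and a median of -0.41. The called gene was Sdhc, an anchor chain of succinate dehydrogenase, which fell by 0.59 ± 0.13 on the log2 scale (SE, adjusted p = 0.0387) and lay at 61.7 to 97.7 CPM in tumors against 102 to 142 CPM in normal epithelium. Of 18 citrate cycle genes, edgeR called 0, with 10 lower at an unadjusted p under 0.05 and a median of -0.36, and the most abundant were Mdh2 with -0.29 ± 0.26 (adjusted p = 0.617) and Sdha with -0.61 ± 0.21 (adjusted p = 0.145). Of 13 genes of mitochondrial import and the outer membrane, edgeR called 0, with 1 lower at an unadjusted p under 0.05 and a median of -0.25, and the most abundant were Hspa9 with -0.35 ± 0.18 (adjusted p = 0.345) and Hspd1 with -0.25 ± 0.22 (adjusted p = 0.617).

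Fatty acid synthesis, the opposing pathway, had 8 genes with a positive and 6 with a negative fold change. Of 14 genes tested, edgeR called 1, against 2.22% of all genes. At an unadjusted p under 0.05, 2 were higher and 1 lower, against 10.6% and 6.75% of all genes. The median was 0.18, with 0.37 in Lrig1-low cells and 0.05 in Lrig1-high cells. The called gene was Acly, which makes cytosolic acetyl-CoA from citrate. Acly had 184, 158 and 155 CPM in tumor Lrig1-high cells, 144, 192 and 182 CPM in tumor Lrig1-low cells, 125, 116, 107 and 142 CPM in normal Lrig1-high cells and 87.6, 82.5, 128 and 102 CPM in normal Lrig1-low cells. Every tumor library lay above every normal library, and Acly rose by 0.61 ± 0.13 on the log2 scale (SE, adjusted p = 0.036).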

How the data were processed

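The authors deposited 1 table of raw counts per gene for 15 libraries. Per the file headers, featureCounts 1.5.3 counted reads on the reverse strand over mm10 RefSeq exons by Entrez identifier, with no option for fragments, multiple hits or overlapping genes. The submitters' processing notes also name Trimmomatic, HISAT2 and Subread. Per the labels' protocols, RNA went through PicoPure extraction, the SMARTer Stranded Pico v2 kit and paired-end NextSeq sequencing. No column was left unmapped.

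From these counts, CPM and fold changes were computed here with edgeR 4.0.16 (R 4.3.3). The fit held a coefficient per group over 14 libraries, with TMM scaling and filterByExpr (minimum count 10, minimum total 15). Differences were tested by the quasi-likelihood F test with Benjamini-Hochberg adjustment over 13883 genes and a threshold of 0.05. CPM in the text use the TMM-scaled library sizes. DESeq2 1.42.0 and limma 3.58.1 (voom with sample weights) were run as alternatives, along with other filters, scalings and sets of libraries. Counts by the other tools are given for the members and not for the other lists. The edgeR steps were tested on simulated data. Precision is limited by 3 or 4 libraries a group.

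The 31 members and the gene lists were chosen with earlier results of these data known. Values per library are given for members called, and in each role for the member with the highest level per length and the one with the largest fold change of tumor over normal. Etfa, Acsl1 and Pdk4 were added after their values were seen. Of each other list, up to 3 genes called, or else the 2 with the highest mean, are named. Some genes of these lists are not reported here.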

Additional observations from a re-analysis of the deposited data

Results flagged for a closer look

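Within groups of 4 libraries, 12 of 62 combinations of member and group had a library far from the others (gap over range past Dixon's critical value), where chance gives about 1 in 20. In normal Lrig1-high libraries this was 9 of 31 members, against 14.6% of all genes tested, and in normal Lrig1-low libraries 3 of 31, against 9.29% of all genes. The members share these libraries, so their flags are not independent. The groups of 3 tumor libraries were not tested.

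In 9 of the 12 it was S10 among normal Lrig1-high libraries, whose Lrig1 RNA also went against its label. There Slc27a4 had 138 CPM (the others 33.0 to 35.8), Acsl5 411 CPM (the others 141 to 170.0), and Slc25a20 37.6 CPM (the others 10.5 to 13.3). Acadl had 213 CPM (the others 65.1 to 83.0), Etfb 105 CPM (the others 71.2 to 76.2), and Acaa2 223 CPM (the others 83.2 to 107). Eci2 had 46.1 CPM (the others 22.1 to 24.4), Hsd17b4 215 CPM (the others 118 to 133), and Pdk4 16.2 CPM (the others 1.88 to 3.91). All 9 were higher in S10, and 9.57% of all genes tested stood apart in the same way, higher in S10.

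In normal Lrig1-low libraries, S09 was low for Slc27a4 at 66.0 CPM (the others 123 to 131) and for Cpt2 at 68.9 CPM (the others 120.2 to 128). S01 was high for Hadh at 434 CPM (the others 317 to 334). The causes were not tested.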

How the results depend on the processing

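For tumor over normal in Lrig1-low cells, edgeR called 0 members, against 2 with DESeq2 (Etfa and Ehhadh; 5.09% of all genes), 5 with limma-voom (Etfa, Etfdh, Eci1 and Ehhadh lower, Pdk4 higher; 10% of all genes), 1 without S12 (Etfa; 1.98% of all genes), and 0 to 2 over the fits that left out 1 library. In Lrig1-high cells leaving out 1 library gave 0 to 1 (Slc27a2 without S04, where 5.59% of all genes were called). As the mean of both fractions edgeR called 1 member, against 3 with DESeq2 (Acsl1, Etfa and Ehhadh, with 7.64% of all genes), 0 with limma-voom (3.95% of all genes), 0 with the replicate block, 2 in the 10 libraries whose Lrig1 RNA followed the label (Acsl1 and Eci1, with 4.71% of all genes) and 0 without S12. Leaving out 1 library gave 0 to 4 there, with 4 without S03 (1.98% of all genes) and 4 without S04 (7.34% of all genes, against 2.22% from 14 libraries). For Lrig1-high over Lrig1-low in normal epithelium, limma-voom called 17 (30% of all genes) and the 10 libraries called 4 (5.69%), against 0. The median there lay between -0.53 (without S10) and -0.16 over the fits that left out 1 library. Over those fits the median of tumor over normal lay between -0.73 and -0.49 in Lrig1-low cells. It lay between -0.51 and -0.15 in Lrig1-high cells and between -0.59 and -0.33 as the mean of both. The values of -0.15 and -0.33 were those without S10. Hadh changed sign without S03, to -1.48 in Lrig1-low cells and -1.02 as the mean of both, and under the replicate block to -0.0771 as the mean. Over the fits that left out 1 library Hadh lay between -1.48 and 1.57 in Lrig1-low cells and between -1.02 and 0.52 as the mean. The labels share no replicate numbers, so the block, runs of consecutive library numbers, is a guess from the numbering. Under it Ehhadh had -0.93 (adjusted p = 0.0674, edgeR), and with limma-voom -0.64 (adjusted p = 0.0927). The causes of these shifts were not tested. Other scalings, filters, library sizes and the near-empty S15 left the calls as they were. Library number and wide spread within groups limit what single genes can show.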

Other observations

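In normal epithelium, 7 of 7 Paneth cell markers had a positive log2 fold change in Lrig1-high over Lrig1-low cells, with a median of 2.19. All 7 goblet cell markers had a negative one, with a median of -0.88, where 48.8% of all genes were negative. None was called by edgeR, against 0% of all genes. Summed Paneth markers overlapped, at 423.5 to 11910 CPM in Lrig1-high and 72.2 to 3751 CPM in Lrig1-low libraries. Goblet markers also overlapped, at 4526 to 21760 CPM and 7781 to 48470 CPM. S09 and S10, whose Lrig1 RNA went against the label, were included. Besides Hadh, the S03 library (tumor Lrig1-low) held Rbm28 at 8591 CPM, against at most 49.9 CPM in any other library, and Marchf5 at 4973 CPM, against at most 47.3 CPM. The S14 library (normal Lrig1-high) held 55 genes with at least 100 CPM and more than 4 times the level of every other library, none of them a member.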
